A study of Oryza sativa with 12 samples.

Results

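Glutathione S-transferases were examined in rice roots through 3 genes, GSTZ5, GSTU6 and GST1, which were taken by gene symbol or synonym from the 17905 genes that the annotation gives to a probe set of 1 gene. GSTZ5 (LOC4332455) and GST1 (LOC4334347, also named GSTU1) lie on chromosome 3, and GSTU6 (LOC4349207) lies on chromosome 10. Of the 6 rice genes whose names begin with GST in that annotation, these are the 3 that passed the test below as higher with arsenate in at least 1 variety. The genes were selected on their measured log2 changes with arsenate in Azucena and Bala, known from earlier results of these data, so that their arsenate changes are given below as a description and not as a test.

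The 12 Affymetrix arrays hold root RNA of 2 varieties, Azucena and Bala, the second of which is the more arsenate-tolerant as general background. Seedlings grew for 7 days in hydroponics with 0 ppm arsenate (Azucena control and Bala control) or with 1 ppm, that is 13.3 uM (Azucena arsenate and Bala arsenate). Each group has 3 arrays, 1 from each of 3 independent experiments, and each array holds whole-root RNA pooled from 4 plants that shared a pot. Signals are the deposited MAS5 values on a linear scale, whose mean after trimming 2% at each end was 100 on every array. In whole roots, fewer cells of a type and less RNA per cell cannot be told apart.

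Glutathione S-transferases are enzymes that join the thiol of the tripeptide glutathione to reactive or foreign molecules, which plants then move into the vacuole. The tau class (GSTU) and the phi class (GSTF) are large in plants and are known for herbicide detoxification and for induction by stress, whereas the zeta class (GSTZ) is known for a step in tyrosine breakdown. Arsenate enters root cells through phosphate transporters and is reduced to arsenite, which binds thiols such as glutathione and the phytochelatins made from it. The class of each gene is read here from its name, and the protein was not examined.

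The arrays were checked against root and green shoot markers. Of 6 root markers 4 were measured, and the brightest, the silicon channel Lsi1, read 1174.3 or more on all 12 arrays. The lowest readings of the others were 177.6 for Lsi2, 75.6 for OsAKT1 and 34.1 for OsNramp5, each on an arsenate array. The summed signal of the 4 measured root markers ran from 9687 to 12590 in the controls and from 1737 to 6024 with arsenate. Of 11 green shoot genes 9 were measured, and their sum was 2867.5 on Azucena control 3 against 597.7 and 606.8 on the other Azucena controls. It was 242.6 to 401.6 in Azucena arsenate and 1442.9, 3400.7 and 4701.3 on the Bala controls. On Bala arsenate 3 that sum was 4062.6 against 672.7 and 531 on the other Bala arsenate arrays. The light-harvesting gene CAB2R was the largest item on Azucena control 3 (1646.7) and Bala arsenate 3 (2252). OSA15 went the other way on these arrays. It read 131.9 on Azucena control 3 against 211.6 and 174.2, and 214.2 on Bala arsenate 3 against 309.3 and 318. RBCS1 was also lowest of its group on both, at 0.5 and 2.3. The rest of the 9 were highest of their group on both. Some green shoot genes read very low, with RBCS1 at 0.5 to 7.6 over the 12 arrays and GLK1 down to 0.3. The arrays thus carried root marker signal throughout, though less of it with arsenate. The green shoot sum, though not each gene in it, was higher on Azucena control 3, Bala control 3 and Bala arsenate 3 than on the others of their groups. The first and last stood furthest above their groups, and results are given without these 2 where that changes a call. The part of the root and green shoot markers in the values below was not tested.

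GSTZ5 had the largest fold of the 3 in both varieties. Its signal in the Azucena controls was 179.8, 171.4 and 196.3 in experiments 1 to 3, against 1270.9, 2189.1 and 2550.1 with arsenate. In Bala it was 87.2, 86.8 and 23.3 in the controls and 1689.2, 1963.5 and 986.5 with arsenate. Arsenate and control arrays of a variety were far apart, and the lowest value in either Bala group came from experiment 3. The ratio of group means was 10.98 in Azucena and 23.5 in Bala. On the log2 scale, with 2.1 added to each signal, the change was 3.38 ± 0.46 (SE, n = 3 arrays a group) in Azucena and 4.66 ± 0.46 in Bala. From lowest to highest the groups ran Bala control (65.8 ± 36.8, mean ± SD, n = 3), Azucena control (183 ± 12.7), Bala arsenate (1546 ± 504) and Azucena arsenate (2003 ± 659.5), and only the last pair overlapped.

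GSTU6, of the tau class by its name, had log2 changes of similar size in both varieties. Its signal in the Azucena controls was 721.1, 650.8 and 998.6, against 4406.1, 5347.4 and 5442.8 with arsenate. In the Bala controls it was 1682.4, 1003.4 and 246.9, against 5413.3, 6534 and 4693.3 with arsenate. The control arrays of Bala spread over a much wider range than those of Azucena, while the arsenate arrays of both varieties lay close together on the log2 scale. On the arsenate arrays GSTU6 stood above 99.89% to 99.97% of probe sets. Whether signals so near the top of the scale level off was not tested. The log2 change was 2.70 ± 0.55 in Azucena and 2.87 ± 0.55 in Bala, and the ratios of group means were 6.41 and 5.67. Within Bala the log2 change was 1.68, 2.70 and 4.24 in experiments 1 to 3, so that the low control of experiment 3 came with the largest change. Neither the 2 control groups nor the 2 arsenate groups separated by variety, at 790.2 ± 184 in Azucena control, 978 ± 718 in Bala control, 5065 ± 573 in Azucena arsenate and 5547 ± 928 in Bala arsenate. A second probe set of the gene read between 0.5 and 11.1 on the 12 arrays, did not pass the filter on low signals, and gave log2 changes of -0.77 in Azucena and -0.22 in Bala. The values of GSTU6 therefore rest on 1 of its 2 probe sets.

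GST1, also of the tau class by its second name, was already high in Azucena without arsenate. Its signal in the Azucena controls was 2690.3, 2222.2 and 2344.9, against 3632.9, 4191.3 and 3833.2 with arsenate. In the Bala controls it was 534.4, 330.8 and 141.5, against 2081.3, 2882.2 and 1353.3 with arsenate. Of the Bala arsenate arrays, that of experiment 2 lay above all Azucena controls and the others lay below them all, and arsenate and control arrays overlapped in neither variety. The ratio of group means was 1.61 in Azucena and 6.27 in Bala, and the log2 change was 0.69 ± 0.36 and 2.77 ± 0.36. On the Azucena arsenate arrays GST1 stood above 99.72% to 99.81% of probe sets, and levelling off was not tested here either. The groups ran from Bala control (336 ± 196, mean ± SD, n = 3) through Bala arsenate (2106 ± 765) and Azucena control (2419 ± 243), which overlapped, to Azucena arsenate (3886 ± 283). The probe set of GST1 is of a type that can match several transcripts, so that related genes may share its signal.

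**Figure D1:**
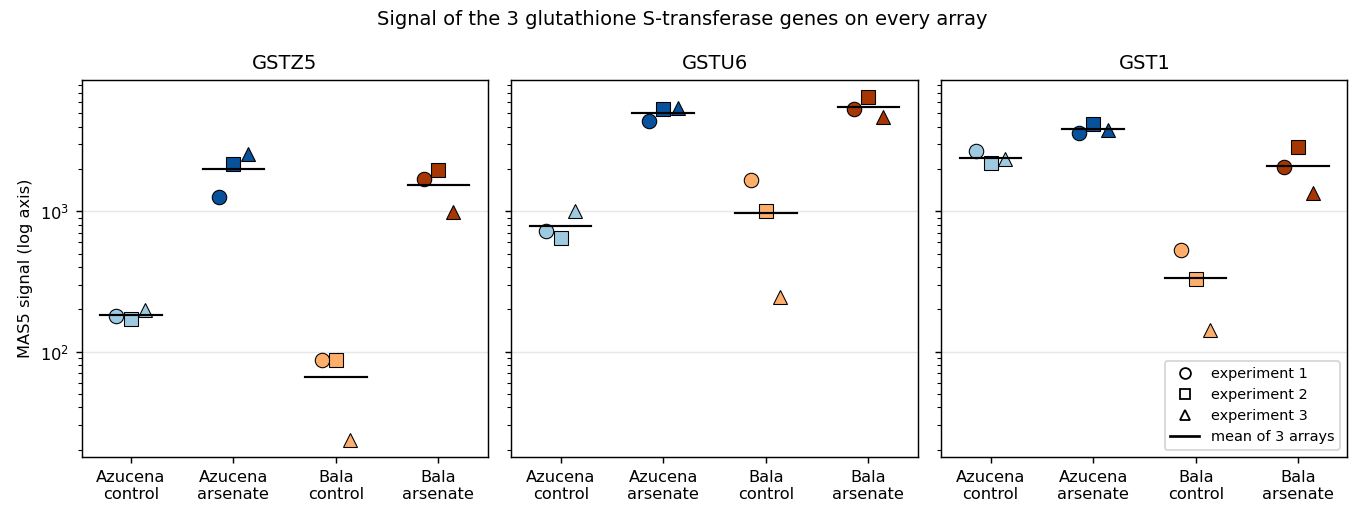
MAS5 signal (log axis) of GSTZ5, GSTU6 and GST1 on each of the 12 arrays, by group, with a symbol for each experiment and a line at the mean of 3 arrays. Arsenate arrays lay above the controls of their variety for all 3 genes, GST1 was lowest in Bala controls (141.5 to 534.4), and Bala control 3 had the lowest signal of each gene.

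In the fit across all 28461 probe sets that passed the filter, 3 of the 4 probe sets of these genes were tested. Among the 6 named glutathione S-transferases, 2 passed the threshold (limma, adjusted p under 0.05) as higher in Azucena (GSTZ5 and GSTU6) and 3 in Bala (these and GST1), and none was lower. Of all tested probe sets 10.7% passed as higher and 10.3% as lower in Azucena, 21.0% together. In Bala 6.19% passed as higher and 5.68% as lower, 11.9% together. These were 1762 higher and 1617 lower in Bala, and with arrays centred on their medians 1198 higher and 2110 lower, while the calls of the 6 genes with arsenate were then the same. Nothing can be read from these counts, since the 3 genes were chosen with them known. The median log2 change over the 6 genes was 0.29 in Azucena and 1.47 in Bala, where that of all tested probe sets was 0.10 and 0.06. These medians include the 3 genes chosen on their changes and are no test either. Arsenate arrays lay wholly above the controls for all 3 genes in both varieties, as they did for 24.0% of tested probe sets in Azucena and 16.2% in Bala. GSTU6 did not pass in Azucena without Azucena control 1 or 2, nor in Bala without Bala arsenate 2, so that 1 and 2 of the 6 genes were then higher. It did not pass in Bala without Azucena control 3 and Bala arsenate 3 together, which left 2 of 6. Without experiment 1, GSTU6 passed in neither variety, and without experiment 2 the counts were 0 of 6 in Azucena and 1 of 6 (GSTZ5) in Bala. These fits describe how the counts moved and do not test the 3 genes.

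The 3' to 5' signal ratio of control genes, a reading of RNA quality, moved with arsenate as well. For actin it was 2.54 to 3.66 in Bala controls and 6.82 to 8.59 with arsenate, and for GAPDH it was 1.43 to 2.17 and 3.53 to 3.78. In Azucena the GAPDH ratio was 7.58 to 8.60 in controls and 8.86 to 23.8 with arsenate, and the actin ranges overlapped. The ranges for cyclophilin overlapped in both varieties. The part of these ratios in the changes of the 3 genes was not tested.

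The arsenate change of each gene was also set between varieties. The log2 change in Bala minus that in Azucena was 2.08 ± 0.51 (SE) for GST1, 1.28 ± 0.66 for GSTZ5 and 0.18 ± 0.78 for GSTU6. For GST1 it was 1.52, 2.20 and 2.53 in experiments 1 to 3, and for GSTZ5 1.44, 0.81 and 1.60, positive each time. For GSTU6 it was -0.92, -0.33 and 1.79, with both signs. These differences were not tested, because they are made of the changes known when the genes were chosen. Of all tested probe sets 0.0914% passed in this comparison, 0.0422% as higher and 0.0492% as lower, and 2967 had an unadjusted p under 0.05. A larger change of GST1 in Bala came with a lower control level there, and its level with arsenate remained below that of Azucena in each experiment.

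**Figure D2:**
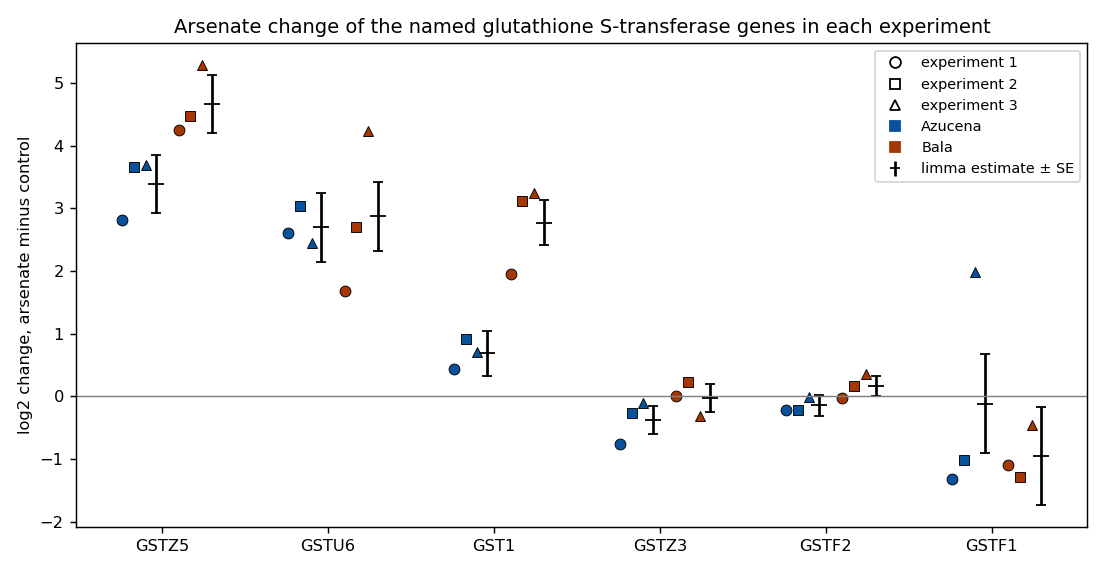
Log2 change with arsenate of the 6 named glutathione S-transferase genes in each experiment (symbols, Azucena blue and Bala brown), with the limma estimate ± SE of 3 arrays a group beside them. GSTZ5, GSTU6 and GST1 were above 0 in every experiment, and the estimates of GSTZ3, GSTF2 and GSTF1 lay between -0.95 and 0.16.

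The difference between varieties, averaged over control and arsenate groups, was tested. With all arrays it is uncorrelated with the arsenate changes if the groups spread alike, and fits without single arrays lack this balance. The spread was unlike for all 3 genes. For GST1 the log2 deviations from the group mean were -1.04 to 0.86 in Bala controls and -0.12 to 0.16 in Azucena controls. They were -1.59 to 1.17 and -0.25 to 0.36 for GSTU6, and -1.21 to 0.61 and -0.09 to 0.11 for GSTZ5. A low Bala control both raises the arsenate change in Bala and lowers this difference. The test is therefore not free of how the 3 genes were chosen, and the size of that effect was not tested. GST1 was lower in Bala, with a log2 difference of -1.99 ± 0.26 (limma adjusted p = 5.05e-04), and it was lower in 3 of 3 experiments. The ratio of the Azucena to the Bala mean was 7.21 without arsenate and 1.85 with it. GSTZ5 had a log2 difference of -1.01 ± 0.33, also with 3 of 3 experiments below 0, and did not pass (limma adjusted p = 0.0592). For GSTU6 the difference was 0.03 ± 0.39 with a 95% interval from -0.85 to 0.92 and did not pass (limma adjusted p = 0.964), and differences within that interval are not excluded by these 12 arrays. Of all tested probe sets 20.8% passed in this comparison, and of the 6 glutathione S-transferases 2 did, GST1 as lower (background 11.6%) and GSTF1 as higher (background 9.25%) in Bala. All Bala arrays lay below all Azucena arrays for 6.25% of tested probe sets and for none of the 3 genes. The median over the 6 genes was -0.04 and that of all tested probe sets 0.01.

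Leaving out the Bala arrays of experiment 3 moved these differences, to -1.60 for GST1 (limma adjusted p = 0.00287), -0.43 for GSTZ5 (limma adjusted p = 0.177) and 0.61 for GSTU6 (limma adjusted p = 0.100). All 3 genes had the lowest signal of their group on Bala control 3 and on Bala arsenate 3, a pattern shared by 18.0% of tested probe sets. On the log2 scale Bala control 3 differed from its group mean by -1.21 for GSTZ5, -1.59 for GSTU6 and -1.04 for GST1. Both arrays also had the highest green shoot sum of their group, 4701.3 and 4062.6, and its part in these low values was not tested. Bala control 3 also had the lowest median signal of the 12 arrays, 7.3 where the others ran from 8.3 to 10.3. The 3' to 5' ratio of GAPDH parted the varieties, at 7.58 to 23.8 in Azucena and 1.43 to 3.78 in Bala, whereas those of actin and cyclophilin overlapped. Its part in the variety difference of GST1 was not tested.

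**Figure D3:**
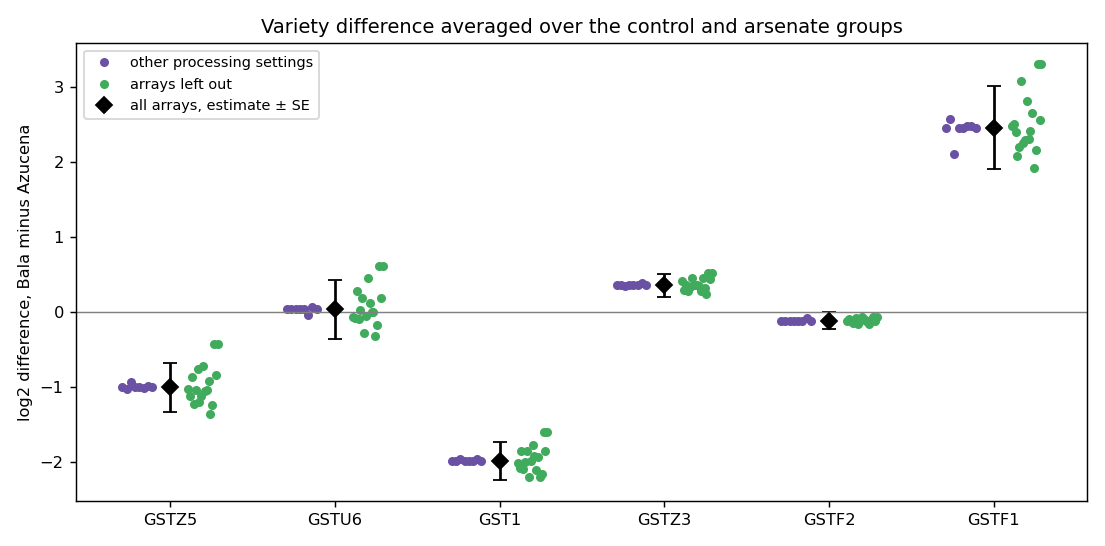
Log2 difference of Bala minus Azucena, averaged over control and arsenate groups, for the 6 named genes (diamonds, estimate ± SE from 12 arrays), beside the estimates under other processing settings and with arrays left out. GST1 stayed between -2.20 and -1.60 under these settings, and GSTU6 lay on both sides of 0.

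The other 3 named glutathione S-transferases did not pass with arsenate in either variety with all arrays. That follows from how the 3 genes were chosen, so the contrast with them is a description. GSTF2, of the phi class and also named GST-II, had a signal of 5857 ± 453 (SD, n = 3) in Azucena controls and 5288 ± 230.5 with arsenate, and of 4876 ± 698 and 5428 ± 226 in Bala. All 4 groups of GSTF2 overlapped with their neighbours in level, and its log2 change was -0.15 ± 0.16 in Azucena and 0.16 ± 0.16 in Bala. GSTZ3, whose name puts it in the class of GSTZ5, went from 291 ± 29.1 to 226 ± 46.9 in Azucena and from 329 ± 3.78 to 327 ± 63.5 in Bala, with log2 changes of -0.38 ± 0.22 and -0.02 ± 0.22. A second probe set of GSTZ3 gave 0.12 ± 0.26 and -0.18 ± 0.26, which did not pass either. It read far lower, with group means from 28.1 to 38.3. The leading probe set of GSTZ3 is of a type that may share signal with related sequences. The genes with GSTZ names therefore had unlike values, with 1 far higher under arsenate in both varieties and the other not past the threshold in either. In order of their log2 change in Bala, GST1 at 2.77 was the last of the 3 genes chosen, and GSTF2 at 0.16 came next among those left out.

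GSTF1, the phi class gene also named GST-I, was the 1 named glutathione S-transferase that was higher in Bala. Its signal was 22, 30.9 and 12.1 in Azucena controls and 7.6, 14.3 and 53.8 with arsenate. In Bala it was 256.4, 301.3 and 54 in the controls and 119, 122.2 and 38.6 with arsenate. The Bala arrays of experiments 1 and 2 stood well above all Azucena arrays, and those of experiment 3 did not. The log2 difference of Bala minus Azucena was 2.45 ± 0.55 (limma adjusted p = 0.0128). Averaged over control and arsenate it was above 0 in 3 of 3 experiments, at 3.53, 3.06 and 0.76. With arsenate in experiment 3, however, Bala was below Azucena, at 38.6 against 53.8. The limma adjusted p was 0.142 without experiment 1 and 0.161 without experiment 2. The arsenate change of GSTF1 did not pass in either variety with all arrays (-0.11 ± 0.78 in Azucena and -0.95 ± 0.78 in Bala). Without Azucena arsenate 3 it passed as lower in Azucena, at -1.38 (limma adjusted p = 0.0255). Without experiment 3 it passed as lower in both varieties, at -1.16 (limma adjusted p = 0.0284) and -1.19 (limma adjusted p = 0.0368).

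Of the genes that make or use glutathione, 2 of 3 listed were measured. The gene gcs, for the enzyme that joins glutamate to cysteine on the way to glutathione, passed as higher with arsenate in both varieties on all 3 of its probe sets. Its brightest probe set read 1002 ± 118 (SD, n = 3) in Azucena controls and 2950 ± 62.7 with arsenate, and 655 ± 139 and 1533 ± 128 in Bala. With gcs, as with GST1, both Azucena groups were higher than the Bala groups of the same treatment, and its variety difference was -0.79 ± 0.12 (limma adjusted p = 0.00154). GLYI-11, a glyoxalase that acts on a glutathione adduct, had log2 changes of -0.19 ± 0.16 and -0.20 ± 0.16 and passed in neither variety.

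The signals of GSTZ5 and GSTU6 followed each other across the 12 arrays, with a Pearson r of 0.94 on the log2 scale, and those of GST1 less so, with 0.81 against GSTZ5 and 0.64 against GSTU6. These r values are a description, since the 3 genes were chosen on their arsenate changes. The 12 arrays also share their control and arsenate groups and their experiments. Among 2224 other genes with a name, the 3 most like GSTZ5 were the small heat shock protein gene HSP17.4 (r = 0.97), the plastid phosphate translocator OsPPT3 (r = 0.97) and the cysteine synthase CSase, also named rcs3 (r = 0.96). OsPPT3 read 36.6 ± 8.54 (SD, n = 3) and 337 ± 46.3 in Azucena control and arsenate, and 21.1 ± 1.15 and 315 ± 97.0 in Bala. HSP17.4 read 81.3 ± 54.4 and 1919 ± 624 in Azucena, and 38.0 ± 28.9 and 2008 ± 1241 in Bala. CSase moved over a smaller range, from 1734 ± 103 to 2397 ± 252 in Azucena and from 1541 ± 309 to 2394 ± 125 in Bala.

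The genes most like GSTU6 were Pir7b, an esterase (r = 0.98), opda, of the oxophytodienoate reductase family (r = 0.97), and OsTPP2, a trehalose phosphate phosphatase (r = 0.96). Pir7b went from 92.3 ± 15.3 to 1940.4 ± 628 in Azucena and from 139.6 ± 100.4 to 2863 ± 1078 in Bala. Like GSTU6, all 3 had their lowest Bala control on array 3, at 39.8 for Pir7b, 15.3 for opda and 114.8 for OsTPP2. The genes named as most like GSTZ5 and GST1 did so too. All of them were picked by r over these same arrays, so nothing is read from this. The genes most like GST1 were OsCASPL1E1, of a family of Casparian strip membrane domain proteins (r = 0.95), the polyamine transporter OsPUT1 (r = 0.95) and NSHB1, a non-symbiotic haemoglobin (r = 0.94). NSHB1 had the same order of groups as GST1, with 706 ± 418 in Bala control, 1487 ± 366 in Bala arsenate, 2107 ± 11.8 in Azucena control and 2640 ± 132 in Azucena arsenate. OsCASPL1E1 read 10.7 ± 4.19 in Bala controls and between 34.1 and 38.6 on average in the other 3 groups.

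The position of the 3 genes was described through the 5 annotated genes on each side, of which 15 in all were tested. These neighbours were listed after the data were seen, by position alone. Of the 15, 2 passed as higher with arsenate in Azucena and 2 in Bala, and none passed as lower. The Azucena count is near the background of 10.7% of all tested probe sets. The Bala count lies above its background of 6.19%, and both of its genes were among the 4 tested around GSTU6. With 15 genes, nothing is read from either count. None of the 5 tested neighbours of GSTZ5 passed in either variety, and 1 of 6 around GST1 did, LOC4334351 in Azucena (log2 change 0.97 ± 0.18). Around GSTU6, LOC4349204, 2 genes away, went from 31.4 ± 15.4 (SD, n = 3) to 252 ± 109 in Azucena and from 41.03 ± 9.47 to 469 ± 416 in Bala, with log2 changes of 2.93 ± 0.60 and 3.05 ± 0.60. LOC4349210, 2 genes away on the other side, had log2 changes of 1.03 ± 0.32, which did not pass, and 1.31 ± 0.32, which did. The annotation gives these neighbours no other name, and signal shared between similar neighbouring genes was not tested.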

How the data were processed

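RNA from rice roots was measured on 12 Affymetrix Rice Genome arrays in 4 groups of 3. Each deposited value is a linear intensity, the MAS5 signal of a probe set, per the submitters' processing notes (no MAS5 version stated). They were used as deposited, without new scaling. After 123 Affymetrix control probe sets were left out, 57258 remained. Values were taken as log2(signal + 2.1), 2.1 being the 25th percentile of all signals, and 28461 of them, whose mean over the arrays exceeded the pooled median of 9.4, were tested. Limma 3.58.1 in R 4.3.3 fitted 4 group means and a block for the experiment, leaving 6 residual degrees of freedom to which the prior added 2.85. Benjamini-Hochberg adjustment ran over all tested probe sets in each contrast, with a threshold of 0.05. The series' design text states that each replicate number is an independent experiment in which all groups were harvested together. Deviations from the group mean had a median r of 0.131 over 18 pairs of arrays of the same experiment and -0.0359 over 36 other pairs.

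The annotation gave 1 gene to 22436 probe sets, several to 95 and none to 34727. A gene with several probe sets is led by the one with the highest mean. Named genes were the 3 genes, every other gene named GST, measured genes of glutathione synthesis and use, the markers, and the 3 named genes of highest Pearson r to each. Glutathione S-transferases without such a name are not covered. The members and lists were chosen with earlier results of these data known. The number of arrays limits the precision. The fit was tested on simulated data. Alternatives were no block, a lower pseudocount (5th percentile) or a higher one (50th), no filter or one at the 70th percentile, quantile normalization, median centring, eBayes with trend and robust, fits of 1 variety, the other probe set of a gene, and leaving out each array or experiment. Fits without Azucena control 3 and Bala arsenate 3, and without Bala control 3 and Bala arsenate 3, were added after the data were seen. Sequences were not used here.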

Additional observations from a re-analysis of the deposited data

How the results depend on the processing

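The test of GST1 between varieties passed under all 25 alternatives, with log2 differences from -2.20 to -1.60 and adjusted p from 1.32e-04 to 0.0133. GSTZ5 did not pass with all arrays, and passed with a pseudocount at the 50th percentile (-0.94), a filter at the 70th (-1.01), centring on the medians (-0.99) and the trend and robust options (-1.01), as well as without Azucena arsenate 1 or Bala control 1. It ran from -1.36 to -0.43 when arrays or experiments were left out, GSTU6 from -0.33 to 0.61 and GST1 from -2.20 to -1.60. Without the replicate block these differences were -1.01 for GSTZ5, 0.03 for GSTU6 and -1.99 for GST1, and the block changed no call among the 6 glutathione S-transferases.

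With arrays or experiments left out, the arsenate change in Azucena ran from 2.90 to 3.81 for GSTZ5, from 2.40 to 3.16 for GSTU6 and from 0.42 to 0.94 for GST1. In Bala it ran from 4.07 to 5.04, from 2.04 to 3.51 and from 2.36 to 3.18, and the difference of the changes from 0.69 to 1.77, from -0.66 to 0.82 and from 1.67 to 2.50. Without Azucena control 3 and Bala arsenate 3, the change in Azucena was 3.25 for GSTU6 and 0.93 for GST1. The second probe set of GSTU6, which read below the filter, gave -0.77 in Azucena and -0.22 in Bala.

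Counts of called probe sets moved more. For arsenate in Azucena the 5989 became 3102 without the filter and 3656 with Azucena arrays alone, and 858 to 6539 with arrays or experiments left out. For Bala the 3379 became 1602, 1553 with Bala arrays alone, 1886 without Azucena control 3 and Bala arsenate 3, and 429 to 3730 with arrays or experiments left out. The variety difference had 5932 calls, and 3001 to 5955 in those fits. The difference of the changes had 26 calls, which became 58 without the replicate block, 17 and 138 with the lower and higher pseudocount, 5 without and 56 with a stricter filter, 71 with centring, 77 with the trend and robust options, 1 and 107 without the first and second pair of arrays named above, and 0 to 97 with arrays or experiments left out. Centring moved the median of all tested probe sets from 0.06 to -0.10 in Bala and from -0.03 to -0.28 for the difference of the changes, whose split went from 12 higher and 14 lower to 20 and 51. Fits without an array or experiment hold fewer samples, and other causes were not tested.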
